A study of Homo sapiens with 9 samples.

Results

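The regions described here are stretches of the human genome where NKX2-1 peaks were called in all 3 lung adenocarcinoma cell lines of the study. Peaks of the 4 NKX2-1 lists on chromosomes 1 to 22 and X were merged where they overlapped by at least 1 bp. The common regions were chosen by the presence of a peak in each of 3 lists, those of H1819, H2087 and H3122 replicate 2. They number 2742 of 59679 merged NKX2-1 regions, or 4.59% of them. With replicate 1 in place of replicate 2 they would number 951, with both H3122 lists required 962, and with peak scores of at least 100 they would number 1519. The first H3122 list, called replicate 1 here, took part in merging but not in the choice.

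NKX2-1 was mapped by chromatin immunoprecipitation and sequencing (ChIP-seq) in untreated NCI-H1819, NCI-H2087 and NCI-H3122 cells, each of which carries an amplification of NKX2-1 per the labels. All were grown in RPMI medium with serum, and the same Bethyl Laboratories antibody was used throughout. FOXA1 was mapped in H3122 only, with an Abcam antibody. H1819, H2087 and FOXA1 had 1 library each and H3122 NKX2-1 had 2, whose labels do not state whether they came from separate cultures, so comparisons below are between sets of regions and not between replicated conditions. Each line stands for 1 tumour only, and peak lists carry no measure of copy number.

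NKX2-1, also known as TTF-1, is a homeodomain transcription factor that specifies lung and thyroid tissue during development and keeps alveolar and airway genes active in the adult lung. In lung adenocarcinoma it marks tumours of the alveolar lineage, and its amplification has been described as a lineage dependency. FOXA1 is a forkhead factor that can bind its sites in closed chromatin, and it shares many lung enhancers with NKX2-1. Peaks found in several lines mark places that the factor occupied in each of these cultures.

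The 5 lists held 7467 to 48061 peaks on the chromosomes used. The common regions took in 2860 peaks of H3122 replicate 2, or 5.95% of that long list. They took in 2883 peaks of H1819 (21.4%) and 2912 of H2087 (20.2%). Scores are those the authors deposited, 1 per peak, and served only to order the peaks of a list, as a percentile from 0 to 100. Many strong peaks share a score of 3100, and the depth behind each list is unknown.

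Overlap between the lists is part of how the common regions were chosen, so their geometry is given as a description. In 2688 of the 2742 regions (98.0%) the peaks of all 3 lists shared at least 1 base, and the stretch in common had a median length of 444 bp (quartiles 343 and 569.5 bp). The other 54 regions were joined only through neighbouring peaks. Each of the 3 lists had exactly 1 peak in 2410 regions (87.9%). The midpoint of the best H1819 peak lay a median of 85 bp from that of H3122 replicate 2, and the best H2087 peak lay 96.5 bp from it. H1819 and H2087 midpoints were 84.75 bp apart. The same distance between the H3122 replicates, in the 962 regions where both had a peak, was 91.25 bp. Merging by overlap keeps all of these distances short, between lines and between replicates alike.

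The common regions were wide, as merging over 3 lists makes them. Their median width was 1064.5 bp, against 774 bp for regions in H3122 and H1819 only, 892 bp for those in H3122 and H2087 only, and 619 bp for those in H3122 only. The best H3122 replicate 2 peak alone was also wide in them, with a median of 897.5 bp against 618 bp in H3122-only regions. The common regions covered 3.22 Mb in all.

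The place of the common regions in the order of scores differed between the lists that defined them. These values are a description, since the same peaks chose the regions. In H3122 replicate 2 their median score was 317 (quartiles 175 and 594), at percentile 79.4 of the list. In H2087 it was 253 (129.5 and 506), at percentile 68.7. In H1819 it was 131 (86.0 and 231), at percentile 52.3, which is the middle of the list. Of the H3122 replicate 2 peaks, 1.27% of the lowest decile and 16.6% of the highest lay in a common region. For H2087 the share went from 10.5% to 33.0%. H1819 peaks showed no such slope, with 18.3% in their lowest decile, a maximum of 25.1% in decile 7 and 20.2% at the top.

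**Figure D1:**
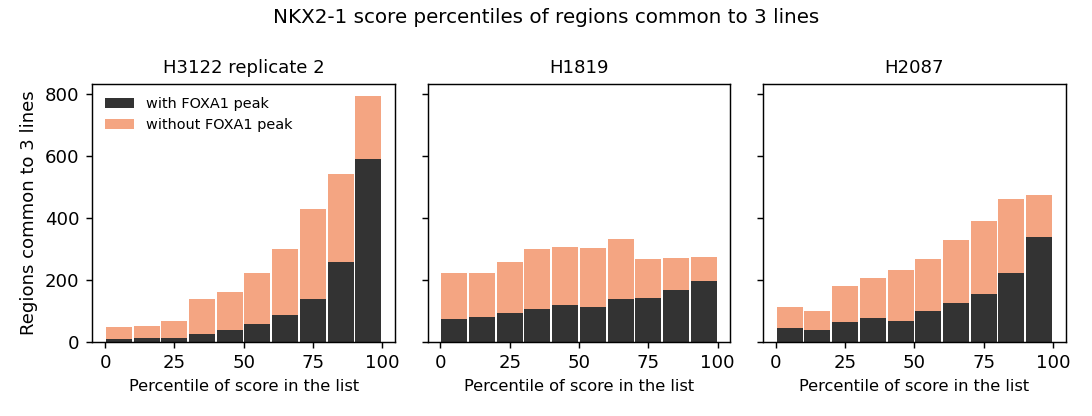
Number of regions common to the 3 lines (vertical axis) in each decile of the score order of H3122 replicate 2, H1819 and H2087 (horizontal axis, percentile within the list), with dark bars for regions that hold an H3122 FOXA1 peak and light bars for the others. The highest decile of H3122 replicate 2 holds 794 regions and its lowest 47, while the deciles of H1819 hold between 220 and 330.

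Strong binding in 1 line went only partly with strong binding in another. Across the 2742 regions, Spearman's rho of the percentiles was 0.47 between H3122 replicate 2 and H1819, 0.43 between H3122 replicate 2 and H2087, and 0.33 between H1819 and H2087. Between the H3122 replicates it was 0.52 over the 962 regions where both had a peak. Over the same 962 regions, rho of replicate 1 was 0.30 with H1819 and 0.29 with H2087. These correlations are across regions, which share their libraries and are not independent, and no test was made. A total of 1054 regions ranked above the median of all 3 lists and 178 ranked at or below it in all 3. In the highest decile of at least 1 list there were 1027 regions, and 98 were in the highest decile of all 3. By percentile, 1580 regions ranked highest in H3122 replicate 2, 835 in H2087 and 327 in H1819.

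The 20 common regions with the highest mean percentile over the 3 lists lay on 12 chromosomes. Of these, 19 also had a replicate 1 peak and 18 a FOXA1 peak. Over all common regions the shares were 35.1% for replicate 1 and 44.5% for FOXA1. From the lowest to the highest decile of mean percentile, the replicate 1 share went from 11.3% to 71.3%. The FOXA1 share went from 20.4% to 79.6%. High counts among the 20 thus largely follow from the ranking that picked them. Scores of the 20 were at least 1376 for H3122 replicate 2, 950 for H1819 and 1289 for H2087, while FOXA1 scores ran from 150 to 3100. The first 2, in 5q31.3 (chr5:140362663-140364959) and 15q26.1, scored 3100 or more in all 3 defining lists. The third was in 12q21.33 (chr12:90997897-90999487), the band of the MAP kinase phosphatase gene DUSP6. A band holds many genes, and the distance to DUSP6 was not measured. H3122 gave this region 94.8 and 3021 in replicates 1 and 2, while H1819 and H2087 both gave 3100 and FOXA1 gave 958. The region was thus among the highest peaks of all 3 defining lists, and at percentile 74.0 of replicate 1.

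FOXA1 scores differed widely among the other regions of the 20. The region in 6p22.2 (chr6:25410237-25411833) scored 65.2 and 1871 in H3122 (replicates 1 and 2), 3033 in H1819, 2475 in H2087 and 249 for FOXA1. The one in 17q23.1 (chr17:55275112-55279391), the widest of the 20 at 4280 bp, scored 150 and 2263 in H3122, 1353 in H1819, 3100 in H2087 and 1665 for FOXA1. The one in 12p12.3 (chr12:15845758-15846906) scored 156 and 2586 in H3122, 1851 in H1819, 2091 in H2087 and 183 for FOXA1. Band 12p12.3 is also that of LMO3, a LIM-only transcription cofactor gene described as an NKX2-1 target. The distance from this region to LMO3 was not measured. A region in 8q24.21 (chr8:127628146-127629627) scored 290 and 2600 in H3122, 1060 in H1819, 2646 in H2087 and 150 for FOXA1, the lowest FOXA1 score among the 18. High NKX2-1 scores in the 3 defining lists are what chose these 20 regions.

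**Figure D2:**
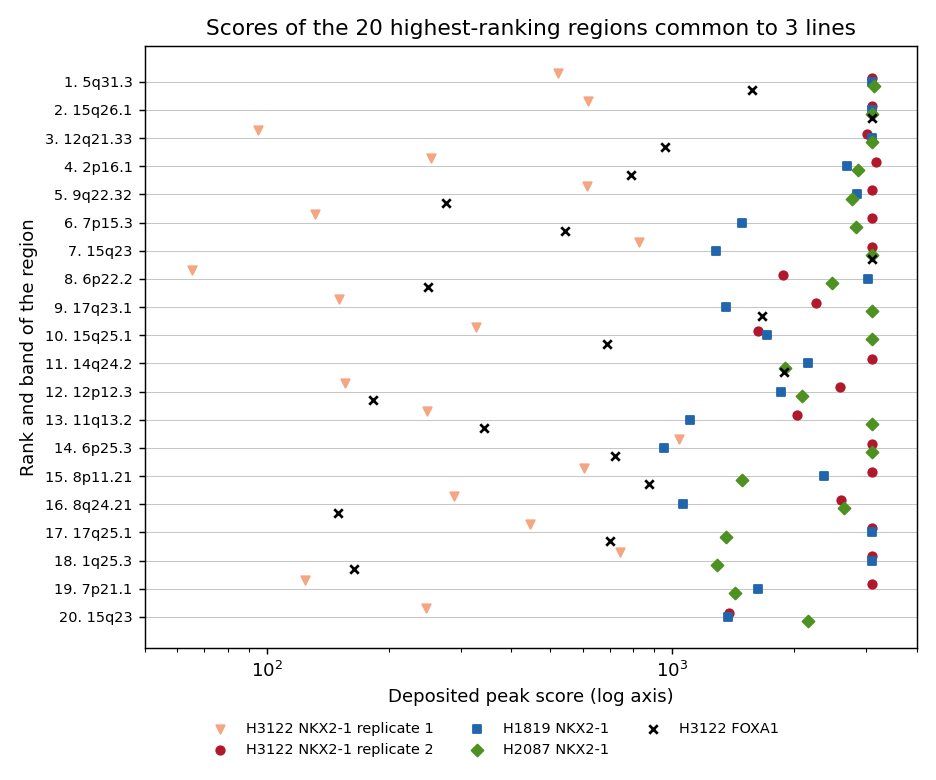
Deposited scores (horizontal, log axis) of the 20 common regions with the highest mean percentile, by rank and band (vertical axis), with 1 symbol per list; a missing symbol means no peak in that list. Replicate 1 scores lie between 65.2 and 1038, while the scores of the 3 defining lists lie at 950 or above.

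Some of the strongest common regions had no FOXA1 peak in H3122. The first was in 7p21.1 (chr7:16274650-16275849), the band of AHR, the aryl hydrocarbon receptor gene. The distance from this region to AHR was not measured. The scores of the region were 124 (replicate 1) and 3100 (replicate 2) for H3122, 1629 for H1819 and 1427 for H2087. The next was in 15q23 (chr15:68879091-68880238), with 246 and 1376 for H3122, 1372 for H1819 and 2164 for H2087. Regions in 1q23.1, 4p14 and 1p36.12 completed the 5 highest without FOXA1, and all 5 had a replicate 1 peak, with scores from 124 to 665. The strongest common region without a replicate 1 peak was in 14q24.2 (chr14:70907955-70909598). Its score was 3100 for replicate 2, 2162 for H1819, 1896 for H2087 and 1880 for FOXA1, so 4 of the 5 lists had it at a high score. The other 4 highest without replicate 1, in 13q32.3, 2p23.3, 4q21.23 and 11q24.3, all had FOXA1 peaks as well. Both kinds of peak were frequent among high-ranking common regions. In the highest decile of mean percentile, 71.3% had a replicate 1 peak and 79.6% a FOXA1 peak.

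At the other end, some common regions were strong in 1 line and barely passed the calling limit in the others. In 10q24.2 (chr10:99598612-99599303) H3122 scored 141 and 1545 in replicates 1 and 2, against 63.8 for H1819 and 66.9 for H2087. In 21q21.3 (chr21:26699249-26701287) H1819 scored 2639, against 77.05 in H3122 replicate 2 and 66.05 in H2087. In 22q13.1 (chr22:35922924-35924557) H2087 scored 1318, against 87.35 in H3122 replicate 2 and 66.2 in H1819. These 3 were the most unequal regions of each line. All 5 of the most unequal regions in favour of H3122 held a FOXA1 peak, 1 of the 5 in favour of H1819 did, and 3 of the 5 in favour of H2087. The FOXA1 share over all common regions was 44.5%. The picks for H3122 scored 676 to 1545 in replicate 2, and those for H1819 and H2087 scored 60.4 to 93.2. Common regions held FOXA1 in 74.2% of decile 10 of that score and in 14.3% to 27.7% of deciles 1 to 3. These counts thus show nothing particular to a line.

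Membership rests on the calling limit of each list. The 5 common regions nearest to the limit were all set by H1819, with scores there of 60.01 to 60.07 and replicate 2 scores of 65.3 to 345. The region in 7p15.3 (chr7:22566932-22568971), for example, scored 345 for replicate 2, 60.07 for H1819 and 1481 for H2087. Just outside stood 4256 regions that lacked only H2087, 6598 that lacked only H1819 and 257 in H1819 and H2087 that lacked both H3122 lists. A peak of the missing line lay within 500 bp without touching in 63, 106 and 23 of them, or 1.48%, 1.61% and 8.95%.

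Replicate 1 of H3122, which had no part in the choice, had peaks in the common regions more often than in any other class with a replicate 2 peak. It was found in 962 of 2742 common regions, 35.1% (95% Wilson interval 33.3 to 36.9), while its share was 12.3% over all merged regions and 12.51% over regions with a replicate 2 peak (5972 of 47751). It was found in 21.6% of regions in H3122 and H1819 only, in 17.9% of those in H3122 and H2087 only and in 8.52% of those in H3122 only. The differences were 13.5 percentage points (Newcombe interval 11.3 to 15.6; Fisher's exact test, two-sided, adjusted p = 1.43e-34), 17.2 points (15.2 to 19.2; Fisher's exact, adjusted p = 1.74e-68) and 26.6 points (24.8 to 28.4; Fisher's exact, adjusted p = 4.93e-290). P-values were adjusted by the Benjamini-Hochberg method over 7 comparisons. They describe the regions of these lists, which are not replicate cultures, and intervals cover counting error only. Common regions had higher replicate 2 scores than the other classes, with medians of 317 against 219, 186 and 119. Within deciles of that score the differences were 7.11 points (5.16 to 9.06), 7.38 points (5.51 to 9.25) and 13.2 points (11.5 to 14.9). At like scores of replicate 2, the second library of the same line thus still found regions shared with both other lines more often, in 10 of 10 deciles against each class.

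**Figure D3:**
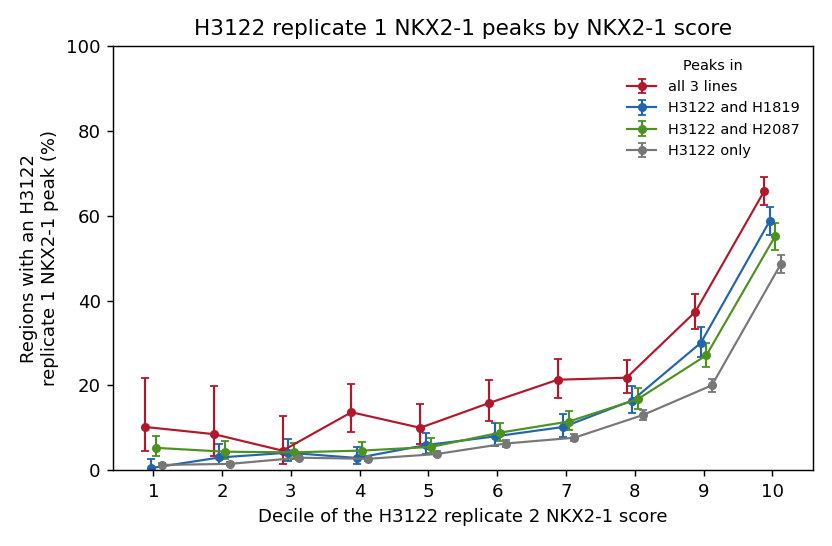
Share of regions with an H3122 replicate 1 peak (vertical axis, percent) in each decile of the replicate 2 score (horizontal axis), for the 4 classes of regions with a replicate 2 peak; bars are 95% Wilson intervals. In the highest decile the share is 65.8% for regions common to the 3 lines, above each other class.

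Replicate 1 peaks in common regions also ranked high in their own list. Their median score was 86.1, at percentile 67.4 of the list. The median percentile was 61.5 in regions with H1819 only as the other line, 56.2 in those with H2087 only and 52.6 in H3122-only regions. Replicate 1 peaks that replicate 2 lacked stood lowest, at percentile 30.7.

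FOXA1, which also had no part in the choice, had a peak in 1219 of the 2742 common regions, 44.5% (42.6 to 46.3). The share was 39.7% over all merged regions and 48.0% over regions with an H3122 replicate 2 peak. It was 54.3% in regions of H3122 and H1819 only, a difference of -9.80 points (-12.2 to -7.40; Fisher's exact, adjusted p = 1.88e-15). In regions of H3122 and H2087 only it was 44.8%, and the difference of -0.330 points (-2.54 to 1.89) did not pass the test (Fisher's exact, adjusted p = 0.784). In H3122-only regions it was 48.1%, a difference of -3.61 points (-5.54 to -1.67; Fisher's exact, adjusted p = 0.000322). In the 257 regions that H1819 and H2087 shared without any H3122 peak, FOXA1 had a peak in 18, a share 37.5 points below that of the common regions (33.2 to 40.6; Fisher's exact, adjusted p = 2.21e-37). Without replicate 2 this difference was 19.5 points (15.7 to 23.3). The other classes without a replicate 2 peak were as low. FOXA1 had a peak in 6.08% of H1819-only regions, 8.32% of H2087-only regions and 4.92% of those with replicate 1 but not replicate 2. FOXA1 was mapped in H3122 only, so this comparison sets regions with an H3122 peak against regions without one. It shows nothing particular to regions in all 3 lines.

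At like NKX2-1 scores the common regions carried FOXA1 less often than each of the 3 classes. Matched on deciles of the replicate 2 score, the difference was -16.9 points (-19.1 to -14.8) against regions of H3122 and H1819, -11.5 points (-13.6 to -9.46) against those of H3122 and H2087, and -23.4 points (-25.2 to -21.6) against H3122-only regions. In the decile of scores from 229 to 325 the share was 32.3% in the common regions (28.0 to 36.8). In the highest decile, from 532 upwards, it was 74.2% (71.1 to 77.2). The share lay below that of H3122-only regions and of H3122 and H1819 regions in 10 of 10 deciles, and below that of H3122 and H2087 regions in 9 of 10. With FOXA1 counted only on the best replicate 2 peak, the matched differences were -17.5, -11.6 and -24.1 points. Matched on region width in place of the score, they were -19.0, -4.26 and -16.9 points. The unmatched difference from H3122-only regions depended on the lists used. It was -1.83 points (-3.68 to 0.0623) with FOXA1 scores of at least 100, and also -1.83 points (-3.76 to 0.109) when matched on the staining class of the band. Without replicate 2, when replicate 1 stood for H3122, it was 8.38 points (4.87 to 11.9). With both H3122 lists required it was -8.25 points (-11.8 to -4.67). With NKX2-1 scores of at least 100 it was -6.46 points (-9.05 to -3.87).

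**Figure D4:**
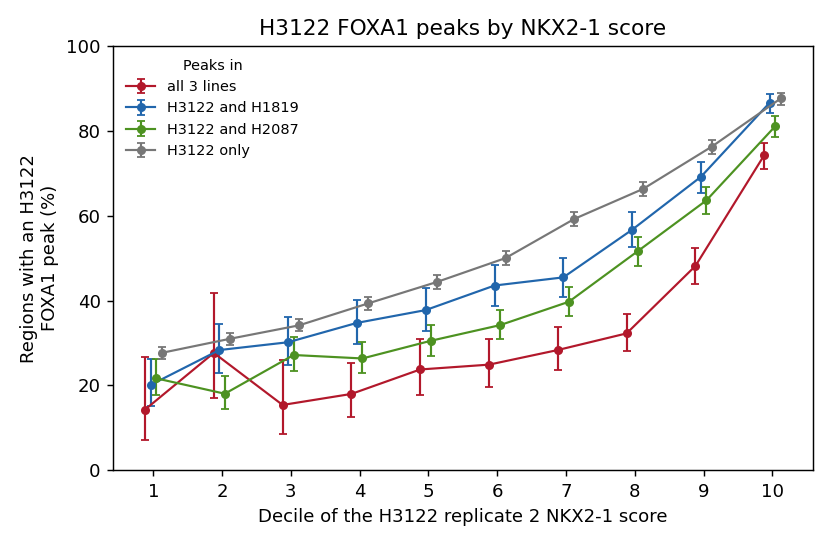
Share of regions with an H3122 FOXA1 peak (vertical axis, percent) in each decile of the H3122 replicate 2 NKX2-1 score (horizontal axis), for the same 4 classes; bars are 95% Wilson intervals. The share rises with score in each class, and for regions common to the 3 lines it reaches 48.1% in decile 9 and 74.2% in decile 10.

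Where FOXA1 and NKX2-1 had peaks in the same common region, the FOXA1 midpoint lay a median of 102.5 bp from that of H3122 replicate 2, within 200 bp in 71.7% of the 1219 regions. The median was 75 bp in regions of H3122 and H1819, 88 bp in those of H3122 and H2087 and 71 bp in H3122-only regions. The common regions were also wider, and the part of width in this difference was not tested. FOXA1 peaks in common regions had a median score of 239, at percentile 69.4 of the FOXA1 list, against percentile 65.1 in H3122-only regions.

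The common regions with and without FOXA1 differed in their NKX2-1 scores in every line. The 1219 with FOXA1 had median scores of 505 for H3122 replicate 2, 162 for H1819 and 341 for H2087. The 1523 without it had medians of 233, 115 and 212. The FOXA1 share rose from 20.2% to 81.1% between the lowest and highest quintiles of replicate 2 score, from 33.7% to 67.0% for H1819 scores and from 36.2% to 69.0% for H2087 scores. FOXA1 was measured in H3122, and the gradient was steepest for the H3122 score. Within each of the 5 quintiles of the replicate 2 score, regions above the median H2087 score had the higher FOXA1 share. In order of rising replicate 2 score, the shares above and below that median were 23.0% and 17.5%, 30.3% and 26.6%, 40.9% and 34.3%, 55.8% and 54.0%, and 82.8% and 79.3%. Intervals overlapped in each quintile, and the difference was not tested. Split by the median H1819 score, the shares were 21.0% and 19.4%, 28.5% and 28.5%, 42.7% and 32.5%, 50.7% and 59.1%, and 81.4% and 80.7%, with no common direction.

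FOXA1 shares were also taken by the line in which a region had its highest percentile. Percentiles come from lists of unequal length, 48061 peaks for H3122 replicate 2 against 13482 and 14434. FOXA1 had a peak in 48.0% (45.5 to 50.4) of the 1580 regions that ranked highest in H3122 replicate 2, in 42.2% (37.0 to 47.6) of the 327 highest in H1819 and in 38.7% (35.4 to 42.0) of the 835 highest in H2087. The intervals of the first 2 classes overlapped, and no test was made. The first of these classes also had the higher replicate 2 scores, with a median of 422 against 205 and 202.

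Common regions with FOXA1 had a replicate 1 peak in 44.0% of cases (41.2 to 46.8) and those without it in 28.0% (25.8 to 30.3). At like scores the gap was small or of the opposite sign. In the 5 quintiles of the replicate 2 score the shares with and without FOXA1 were 9.91% and 11.9%, 19.9% and 19.9%, 25.7% and 26.9%, 37.9% and 53.0%, and 73.5% and 70.2%, in order of rising score. Only in the fourth quintile did they stand far apart, with the higher share in regions that lacked FOXA1.

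Along the genome, the common regions made up a larger part of all NKX2-1 regions on some chromosomes than on others. On chromosome 19 they were 154 of 1673 merged regions, 9.21% (7.91 to 10.7), on chromosome 22 they were 7.30% (5.75 to 9.23) and on chromosome 17 they were 6.48% (5.50 to 7.62). The share was lowest on chromosome X, at 1.89% (1.28 to 2.80), followed by chromosomes 13 at 2.81% (2.16 to 3.63) and 8 at 2.86% (2.32 to 3.52). Chromosome 19 is the most gene-dense human chromosome, and chromosomes 13 and 18 are gene-poor. FOXA1 had a peak in 27.9% of the common regions of chromosome 19 (21.4 to 35.5) and in 21.1% of those of chromosome 16 (13.2 to 32.0), against 63.6% on chromosome 13 (50.4 to 75.1) and 66.7% on chromosome 18 (49.6 to 80.2). On chromosomes 22 and 17, which also held large shares of common regions, it was 50.8% (38.8 to 62.7) and 42.5% (34.5 to 51.0), near the 44.5% over all common regions. Over all regions with a replicate 2 peak, the FOXA1 shares of chromosomes 19, 16, 13 and 18 were 26.4%, 35.5%, 57.0% and 46.2%. Those of chromosomes 22 and 17 were 33.6% and 38.3%. The interval of the common regions lay above this share on chromosomes 22 and 18 and below it on chromosome 16, and was not tested.

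**Figure D5:**
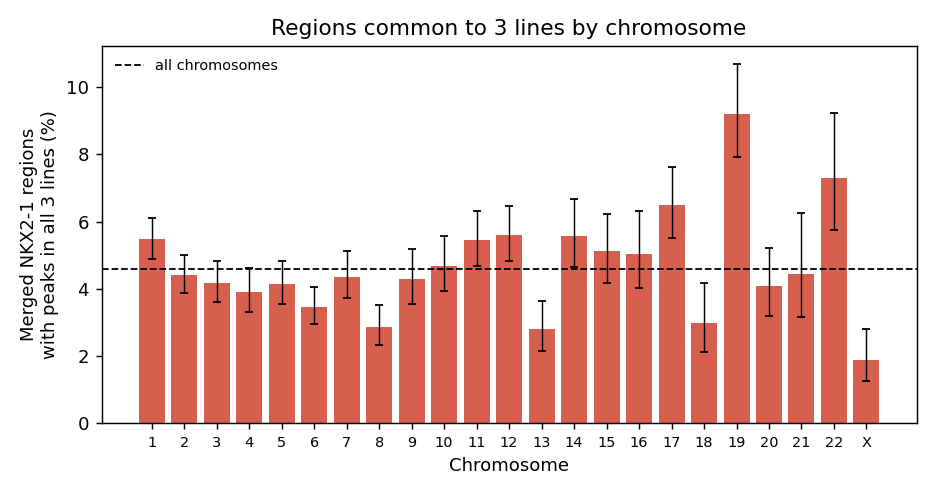
Share of merged NKX2-1 regions with peaks in all 3 lines (vertical axis, percent) by chromosome (horizontal axis), with 95% Wilson intervals; the dashed line is the share over all chromosomes, 4.59%. Chromosomes 19, 22 and 17 are the highest and chromosome X the lowest.

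The same order was seen over cytogenetic bands. Lightly stained bands are rich in genes and open chromatin, and darkly stained bands are poor in both. Common regions were 5.15% of merged regions in unstained bands and 6.41% in the lightest stained class, then 4.77%, 3.27% and 2.35% in classes of rising stain. Their density was 1.22 per Mb in unstained bands, and among stained bands it fell from 1.65 per Mb in the lightest class to 0.362 per Mb in the darkest. Unstained and lightest stained bands together held 69.4% (67.7 to 71.1) of the common regions, 69.3% of the regions in H3122 and H2087, 58.8% of those in H3122 and H1819 and 55.4% of those in H3122 only. The value of the common regions thus lay near that of the regions shared with H2087. Regions found in H2087 only had 72.9%. FOXA1 was found in 37.0% (32.1 to 42.2) of common regions in the lightest stained class and in 53.6% (46.3 to 60.7) in the darkest, and the H3122-only regions went the same way, from 41.5% to 57.2%.

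Of the 715 bands with at least 20 merged regions, 116 held no common region. The highest share was in 12q13.2, with 13 of 44 regions, 29.5% (18.2 to 44.2). This band holds ERBB3, the gene of a receptor tyrosine kinase of the EGFR family. Only 1 of the 13 had a FOXA1 peak and 5 had a replicate 1 peak, where the shares over all common regions were 44.5% and 35.1%. It was followed by 1q23.2 (6 of 26), 6p21.32 in the major histocompatibility complex (13 of 59, of which 7 had FOXA1 and 9 replicate 1), 10q24.32 (11 of 51, of which 2 had FOXA1) and 3q25.32 (6 of 29, of which 4 had FOXA1). In number, 19p13.3 led with 28 regions, followed by 19q13.2 with 25 and 11q13.1 with 21. Band 13q31.1, which holds SPRY2, a feedback inhibitor of receptor kinase signalling, had 178 NKX2-1 regions and no common region, which allows a share of up to 2.11%. Bands 8q12.1 and 8q23.3 also had none, of 141 and 119 regions.

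The median distance from a common region to the nearest other one was 133 kb (quartiles 36.7 and 418 kb). Joined within 50 kb, 831 of them (30.3%) fell into 358 groups of at least 2, of which 8 held 5 or more. The largest group had 6 common regions within 87.5 kb of 12q13.2 (chr12:54721414-54808905), out of 9 merged NKX2-1 regions in that span. None of the 6 had a FOXA1 peak and 2 had a replicate 1 peak. A group in 3q25.32 (chr3:158288963-158376043) had 5 common regions out of 11, of which 4 had FOXA1. A group in 11q23.3 had 5 within 23.95 kb, and 1p36.21 had 5 of the 6 regions in its span, 4 of them with FOXA1. The other 4 groups of 5 lay in 19p13.12, 17p13.1, 11q12.3 and 19q13.2. FOXA1 had a peak in 1, 1, 0 and 2 regions of these 4 groups, and in 2 of the 5 in 11q23.3. Its share over all common regions was 44.5%. With so few regions per group, the spread between groups is a description and was not tested.

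Band 14q13, where the amplified NKX2-1 gene lies, held 6 common regions. Band 14q13.3 itself had 1 of 58 merged regions, 1.72% (0.305 to 9.14), at chr14:35858859-35860048. Band 14q13.2 next to it had 5 of 48, 10.4% (4.53 to 22.2), and 14q13.1 had none of 54. The strongest of the 6 was at chr14:34830769-34831659 in 14q13.2, with scores of 207 and 926 in replicates 1 and 2 of H3122, 262 for H1819, 508 for H2087 and no FOXA1 peak. The next in the same band, at chr14:34942333-34943494, had no replicate 1 peak and scored 625 in replicate 2, 102 in H1819 and 266 in H2087. FOXA1 had a peak in 1 of the 6, at chr14:34519807-34522434, with a score of 163. The intervals of 14q13.3 and of 14q13.1 held the overall share of 4.59%, and that of 14q13.2 reached down to it.

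Gene positions in hg18 were not used here, so no region was tied to a gene. Bands of known lung genes serve as landmarks only, since each band holds many genes. Not every listed gene entered with a band. Those that did were 6 of 10 airway secretory, 22 of 25 transcription factor and 12 of 15 feedback inhibitor genes. They also were 14 of 15 junction and adhesion genes and 11 of 12 reported effectors. All 10 bands of surfactant and lamellar body genes, the products of alveolar type 2 cells, held common regions, 55 of 1088 merged regions or 5.06% (3.90 to 6.52). Band 2p11.2, of the surfactant gene SFTPB, had 7 of 100 and 3q27.1, of the lamellar body gene LAMP3, had 5 of 58. Band 8p21.3, of SFTPC, and 10q22.3, of SFTPA1, SFTPA2 and SFTPD, had 3 each, of 103 and 115. The 5 bands of airway secretory genes had 40 of 413, 9.69% (7.19 to 12.9), with 9 of 63 in 11q12.3, the band of the club cell gene SCGB1A1, and 12 of 79 in 1q22, that of MUC1.

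Bands of lung epithelial transcription factors held 100 of 2573, 3.89% (3.21 to 4.70), and 20 of the 22 had at least 1. The other 2 were 13q22.1, the band of KLF5, and 3p13, that of FOXP1. Band 5q23.2, of ZNF608, had 5 of 214, of which 4 had FOXA1, and 18q11.2, of GATA6, had 4 of 126, all with FOXA1. In contrast, none of the 4 in 3q27.2, of ETV5, and 2 of the 7 in 11p13, of ELF5, had FOXA1. Over all common regions the FOXA1 share was 44.5%. Bands of receptor kinase genes and their ligands held 88 of 1490, 5.91% (4.82 to 7.22). The most were in 19p13.2, of INSR, with 19 of 211, and in 12q13.2, of ERBB3, with 13 of 44. The latter is the band with the highest share named above, and it raises this total. Band 7q31.2, of MET, had 6 of 110 and 7p11.2, of EGFR, had 2 of 54. The fewest were in 15q26.3, of IGF1R, with 1 of 84. Bands of feedback inhibitors of kinase signalling held 71 of 1778, 3.99% (3.18 to 5.01). They ranged from none in 13q31.1 to 12 of 102 in 1p36.23, the band of the EGFR inhibitor ERRFI1, where 9 of the 12 had FOXA1. In 2p14, of SPRED2, 4 of 15 had FOXA1, and in 5q35.1, of DUSP1, none of 3 did. FOXA1 was in 6 of 7 in 10q25.2, all 5 in 12p13.2, all 5 in 12q21.33 and all 3 in 17q25.3. In the other bands of this list it was in 4 of 11 (5q31.3), 2 of 4 (4q28.1), 1 of 4 (8p12) and 1 of 2 (3p14.1).

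Bands of epithelial junction and adhesion genes held 119 of 1662, 7.16% (6.02 to 8.50). They included 6 of 47 in 3q22.3, the band of the lung and stomach claudin CLDN18, 17 of 133 in 7q11.23, that of CLDN3 and CLDN4, and 8 of 124 in 16q22.1, that of the E-cadherin gene CDH1. Bands of genes reported as NKX2-1 effectors held 53 of 932, 5.69% (4.37 to 7.36). In 12p12.3, of LMO3, all 5 common regions of 153 had FOXA1, and so did all 6 of 93 in 12p13.1, of GPRC5A and CDKN1B. The other bands of this list were mixed. FOXA1 had a peak in 6 of 13 in 1q32.1, 4 of 12 in 12p13.31 and 2 of 6 in 3p14.3. It had one in 4 of 5 in 3p24.1, 3 of 4 in 12q14.3 and 1 of 2 in 15q22.33. The FOXA1 share over all common regions was 44.5%. The share over all merged regions was 4.59% and the median over bands was 3.92%. Intervals for bands of airway secretory, junction and adhesion, and receptor kinase genes lay above 4.59%, and those of the other lists given here held it. No test was made. Each band holds many genes, so these counts are a description of the bands and show nothing particular to the genes.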

How the data were processed

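The submitters' processing notes name Bowtie, MACS 1.4.0 and the human build hg18. Per the labels, all 5 lists are ChIP-seq peak calls. Each of the deposited lists came from 1 library and gave a position and a score per peak, with no read counts. The scale of the deposited score is not stated in the sources used here, and the lowest values were 50 in H3122 replicate 1 and 60 in the other lists. Of 125904 peaks, 33 outside chromosomes 1 to 22 and X were left out. The 4 input libraries of the 9 samples were not analysed here. H1819 and H2087 regions without H3122 lack a peak of both H3122 lists.

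Shares have 95% Wilson intervals and differences Newcombe intervals. Classes were compared by two-sided Fisher's exact tests, and matched values are Mantel-Haenszel differences over strata. Python 3.11.15, numpy 2.4.6, pandas 2.3.3, scipy 1.17.1, statsmodels 0.14.6, matplotlib 3.10.9 and R 4.3.3 were used, with bands from circlize 0.4.16. The code was tested on simulated data. A region's score in a list is that of its best peak there.

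Named regions are the 20 highest by mean percentile, the 5 highest without FOXA1 and without replicate 1, the 5 most unequal per line, the 5 nearest the limit, the largest groups, the 5 bands with the highest shares and band 14q13. Bands with the most or no common regions were named after their values were seen. Genes' bands came from textbook knowledge. The common regions and the gene lists were chosen with earlier results of these data known. Alternatives changed the scores, lists, overlap rules, strata and joining distance. Planned counts of genes near regions and of motifs need a genome of build hg18, not used here. Bands of gastrointestinal genes are not reported here.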

Additional observations from a re-analysis of the deposited data

How the results depend on the processing

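Of 69 alternatives over 9 results, 55 were classed as the same as the main result, which does not mean an equal value. The number of common regions was 1519 with scores of at least 100, 1653 with lists of equal length and 962 with both H3122 lists required. It was 951 without H3122 replicate 2 and 2742 without replicate 1. Counts of common regions classed as the same ran from 2145, where every list covered the region midpoint, to 2783. The latter counted H1819 peaks that overlapped both other lists, without merging. With a joining distance 0.25 times as long there were 161 groups, and with 100 kb there were 491, against 358 in the main setting. The higher replicate 1 share of common regions passed the threshold in the same direction under all 15 alternatives run for it. The FOXA1 difference from regions of H3122 and H2087 was -11.5 points matched on replicate 2 score, -11.6 points with FOXA1 on the best replicate 2 peak at matched scores, -3.20 points matched on H2087 score and -4.26 points matched on region width, all past the threshold. It was 0.0575 points with NKX2-1 scores of at least 100 and 1.35 points with FOXA1 scores of at least 100. The difference from H3122-only regions was -1.83 points both with FOXA1 scores of at least 100 and matched on stain. It was -8.25 points with both H3122 lists required and -6.46 points with NKX2-1 scores of at least 100. Leaving out each H3122 replicate gave -14.2 to -9.80 points against H3122 and H1819, -3.63 to -0.330 against H3122 and H2087, -3.61 to 8.38 against H3122 only and 19.5 to 37.8 against H1819 and H2087. Without replicate 2, regions seen only in replicate 1 enter the H3122-only class, and FOXA1 had a peak in just 4.92% of regions with replicate 1 and no replicate 2. The matches on stain and on H2087 score, FOXA1 on the best replicate 2 peak and the count of regions with a base shared by all 3 lists were added after the data were seen. No paired analysis was possible because no group but H3122 NKX2-1 had more than 1 list. The number of peaks a list holds cannot be set against its depth, which is unknown.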
